A study of Mus musculus with 12 samples.

Results

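The SR splicing factors examined here are 10 genes, Srsf1, Srsf2, Srsf3, Srsf4, Srsf5, Srsf6, Srsf7, Srsf9, Srsf10 and Srsf11, taken by symbol from the 24421 genes of the count table. All 10 passed the filter on low counts and were among the 15220 genes tested. Their RNA was measured by sequencing in mouse embryonic fibroblasts (MEFs) of 2 genotypes, in 12 libraries that form 4 groups of 3. The genotypes are labelled Null, which names the MEFs that keep Tfeb and Tfe3 and is written so here, and TFEB/TFE3 DKO, a double knockout made with CRISPR. The paper states that its MEFs were immortalized with SV40, and that this can affect the stability of p53. Each genotype is represented by a single cell line, so genotype and line cannot be told apart. Each was left as a control or given 100 µM etoposide, for 8 h, a drug that holds topoisomerase II in its cleaved complex with DNA and leaves breaks. The labels call the controls untreated, whereas the methods name the solvent DMSO. The question is how the genes of this family respond to DNA damage with and without the transcription factors TFEB and TFE3.

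SR proteins bind short motifs in exons of new transcripts through RNA recognition motifs and recruit the splicing machinery through a tail rich in arginine and serine (RS). The SRPK kinases phosphorylate that tail in the cytoplasm, import receptors carry the protein into the nucleus, and the CLK kinases phosphorylate it further in nuclear speckles, where SR proteins are stored. Many SR genes also limit their own level: the protein promotes inclusion of an exon with a premature stop in its own RNA, and nonsense-mediated decay (NMD) then removes that RNA. A gene count adds coding, NMD and retained-intron transcripts together, so the values here describe RNA levels of whole genes and say nothing about splicing or isoforms. In bulk RNA, fewer cells that carry a transcript and less of it per cell cannot be told apart.

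The Null control libraries held 83970210, 67654759 and 66956083 counts on genes, and the Null etoposide libraries 75454495, 76125320 and 63286195. The DKO control libraries held 74826945, 104120871 and 66749645, and the DKO etoposide libraries 45577023, 68441372 and 94388705. The 10 genes together took between 0.262% and 0.335% of these counts. Levels are given in CPM, read counts divided by the library's total on genes after scaling with TMM, a method that equalizes the bulk of genes across libraries, so each level is relative to the other genes of its library. The smallest count of any member in any library was that of Srsf4 in DKO etoposide replicate 1, at 2967.

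The targeted genes were examined first. Tfeb stood at 40.1 ± 1.78 CPM (SD, n = 3) in Null controls and at 5.12 ± 0.835 in DKO controls, and at 10.7 ± 0.678 and 1.91 ± 0.297 after etoposide. Tfe3 stood at 113 ± 2.83 and 92.7 ± 1.61 CPM in the controls and at 68.7 ± 0.778 and 68.5 ± 4.37 after etoposide. Tfeb counts were thus lower in the DKO libraries of each treatment, while Tfe3 counts differed less. RNA of an edited gene can still be counted, so these levels do not measure the proteins. The fibroblast markers Col1a1, Col1a2, Col3a1, Vim, Fn1, Thy1, Pdgfra, Pdgfrb, S100a4 and Postn were all above 1 CPM in Null libraries, and 9 of the 10 were in DKO libraries, where Thy1 was the exception. Their summed level, led by Vim or Fn1, was 7091 to 7199 CPM in Null controls and 3970 to 4064 after etoposide, against 11670 to 12260 and 5137 to 5447 in DKO MEFs. Markers of leukocytes summed to at most 14.6 CPM, reached in Null etoposide and led by Cd68. Those of muscle summed to at most 38.6 CPM, again in Null etoposide and led by Des. Endothelial and epithelial markers summed to at most 2.89 and 5.92 CPM. Neural markers, led by Nes, summed to 340 to 353 CPM in Null controls and 371 to 392 after etoposide, against 143 to 149 and 173 to 189 in DKO MEFs. The fibroblast, neural, Cd68 and Des levels therefore moved with etoposide and genotype, as the SR levels below did, and their part in those results was not tested.

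The 10 genes lie on 7 chromosomes (mm10), and most are compact, with a median span of 6.8 kb. The shortest is Srsf2 at chr11:116849901-116853094 on the minus strand, spanning 3.2 kb, and the longest is Srsf4 at chr4:131873617-131901706 on the plus strand, spanning 28.1 kb. GENCODE annotates 85 transcripts for them, of which 15 in 9 of the 10 genes are NMD transcripts and 26 in 8 of the genes retain an intron, and Srsf10 is the gene with no annotated NMD transcript. Exons of Srsf2 share 460 bases with Mettl23 and 288 with Mfsd11, those of Srsf4 share 1532 with Gm12992 and those of Srsf1 share 98 with Gm11508, all on the opposite strand. The strand setting of the counting is not given in the sources used here, so counts of these 3 members are uncertain to that extent. Of these partners 3 were low beside the members: the group means of Mettl23 lay between 2.68 and 5.73 CPM, those of Mfsd11 between 11.9 and 24.8 and those of Gm12992 between 3.65 and 5.69.

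The stretch upstream of the start site is shown for 4 members as a description, and a link between sequence and response was not tested. All 10 fell after etoposide in Null MEFs. Srsf2 and Srsf6 had a response to etoposide that differed between genotypes, and Srsf3 and Srsf5 did not pass that test. These 4 were chosen after their values were seen, and Srsf1, whose response differed most between genotypes, is not shown. All 10 members matched the RefSeq promoter table (GRCm38.p6), with 13 windows of the 32851 in it, each reaching from 250 bases before to 50 after a start. Capitals mark CCAAT, the motif bound by NF-Y, or CCGGAAG, an ETS-type motif, on either strand (ATTGG and CTTCCGG on the other), and bases that lie in exons of protein-coding genes are left out.
Srsf2, chr11:116853095-116853294, minus strand: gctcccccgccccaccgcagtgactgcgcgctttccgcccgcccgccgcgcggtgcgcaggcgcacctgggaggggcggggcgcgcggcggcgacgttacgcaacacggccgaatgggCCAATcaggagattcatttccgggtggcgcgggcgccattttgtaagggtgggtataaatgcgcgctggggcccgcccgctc
Srsf6, chr2:162931258-162931507, plus strand: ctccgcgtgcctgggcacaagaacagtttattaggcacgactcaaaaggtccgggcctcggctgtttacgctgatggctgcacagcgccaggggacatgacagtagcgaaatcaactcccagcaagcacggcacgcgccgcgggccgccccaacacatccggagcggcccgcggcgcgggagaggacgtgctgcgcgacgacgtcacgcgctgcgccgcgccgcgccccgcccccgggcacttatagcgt
Srsf3, chr17:29032410-29032627, plus strand: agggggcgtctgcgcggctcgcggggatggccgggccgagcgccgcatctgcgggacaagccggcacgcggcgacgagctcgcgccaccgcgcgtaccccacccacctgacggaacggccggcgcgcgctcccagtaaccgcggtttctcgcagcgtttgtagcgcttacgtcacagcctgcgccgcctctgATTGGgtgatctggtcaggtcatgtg
Srsf5, chr12:80945249-80945498, plus strand: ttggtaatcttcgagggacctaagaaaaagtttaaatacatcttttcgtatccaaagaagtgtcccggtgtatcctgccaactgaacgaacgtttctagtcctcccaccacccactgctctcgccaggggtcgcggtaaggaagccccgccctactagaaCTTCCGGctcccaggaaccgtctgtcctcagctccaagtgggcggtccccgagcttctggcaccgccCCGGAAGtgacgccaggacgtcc
CCAAT was found in windows of 4 members, Srsf1, Srsf2, Srsf3 and Srsf10, and in 37.4% of all windows. CCGGAAG was found in 4 others, Srsf4, Srsf5, Srsf7 and Srsf11, and in 8.86% of all windows. CACGTG, the core motif bound by TFEB and TFE3, was in no member window and in 7.15% of all windows, and its longer form TCACGTGA, which holds the core, was in none and in 0.974%. The E2F-type motifs TTTCGCGC and TTTGGCGC were in no member window either, against 0.323% and 0.514% of all. A match describes letters, not a site in use, and an absent match says only that the letters are not in these windows. The member windows were rich in G and C, at 56% to 78.3% against a median of 52.7%.

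Levels of different genes were compared per kilobase of annotated exon. In Null controls Srsf2 led with 174 ± 2.26 CPM per kb (SD, n = 3) and Srsf1 followed with 172 ± 1.48, and the libraries of the pair overlapped. Srsf6 came next at 88.4 ± 1.84, ahead of Srsf9 at 73.9 ± 2.31, Srsf7 at 70.2 ± 0.41 and Srsf3 at 61.2 ± 1.08. Srsf5 stood at 53.6 ± 2.14 and Srsf10 at 35.7 ± 0.588. Srsf4 at 17.3 ± 0.846 and Srsf11 at 16.6 ± 0.107 were the lowest and overlapped each other. In Null etoposide the order at the top was the same, with Srsf2 at 120 ± 2.99 and Srsf1 at 112 ± 3.02, and Srsf3, Srsf5 and Srsf7 overlapped at 51.4 ± 4.36, 47.9 ± 3.03 and 47.5 ± 2.55. In DKO controls Srsf1 at 140 ± 1.52 and Srsf2 at 139 ± 4.2 overlapped, and after etoposide they stood at 149 ± 6.27 and 140 ± 1.97. Srsf6 ranked 3 and Srsf9 ranked 4 in every group, although Srsf9 overlapped Srsf3 in Null etoposide. The order depends on the length used: per kilobase of the longest coding sequence, Srsf1 led in Null controls at 1294 ± 11.1, ahead of Srsf3 at 982 ± 17.4 and Srsf2 at 775 ± 10.1. Srsf4 and Srsf11 were in the last 2 ranks with every length tried. Only uniquely aligned reads were counted, and how many reads of each gene were left out is not known, so the ranks hold for uniquely aligned reads.

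**Figure D1:**
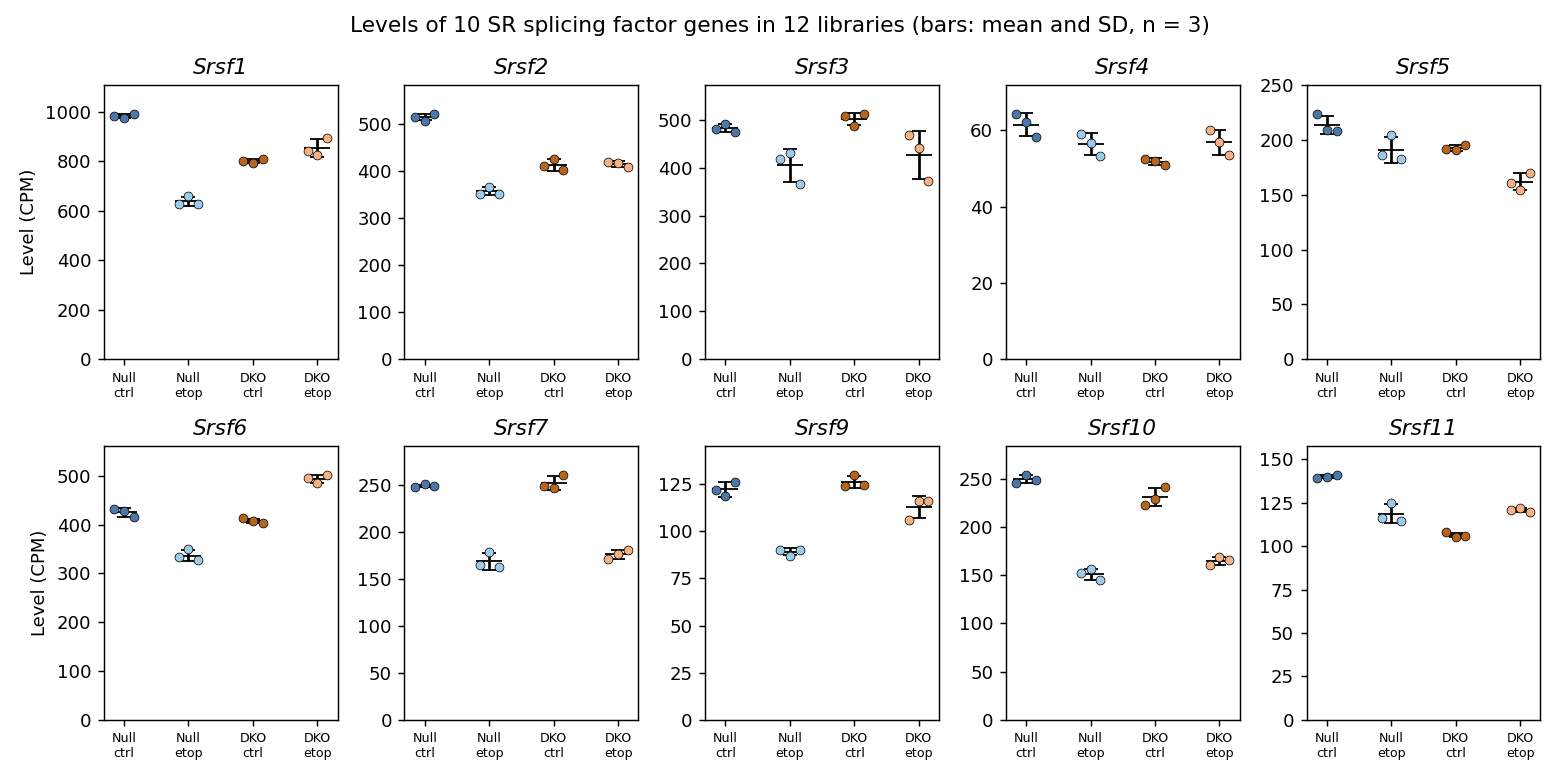
Level in CPM (vertical axes, each from 0) of each of the 10 genes in the 12 libraries, with 3 points per group and black bars for the mean and SD (n = 3). Srsf1 falls from about 982 to 638 CPM in Null MEFs after etoposide and stands at 800 and 853 in DKO MEFs, while Srsf7 and Srsf10 fall in both.

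The first comparison asks how the genes responded to etoposide in Null MEFs. All 10 fell in this comparison, in which 79.4% of all genes tested passed, 37.2% lower and 42.3% higher, and the scaling matters for 4 of them: when library size alone was used, Srsf3, Srsf4, Srsf5 and Srsf11 did not pass, at -0.08, 0.04, 0.01 and -0.07 on the log2 scale. The median log2 fold change of the 10 was -0.40, against 0.07 for all genes tested. The count of members that rose was 0 by edgeR's quasi-likelihood test, also at an unadjusted p under 0.05, and 0 by DESeq2 and by limma-trend. Their summed level went from 3441 ± 13 CPM in the controls to 2512 ± 97.4 (SD, n = 3).

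Srsf10 had the largest fall. Its protein acts as a splicing repressor when it is dephosphorylated, as in mitosis and after heat shock. Srsf10 stood at 246, 254 and 249 CPM in the 3 Null controls and at 152, 156 and 145 after etoposide, with no overlap. The log2 fold change was -0.73 (SE 0.0377, 95% interval -0.81 to -0.65, edgeR BH-adjusted p = 6.58e-12), a level 0.605 times that of the controls, at percentile 14.3 of all genes tested.

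Srsf1 and Srsf2, the most studied members and the highest per kilobase of annotated exon, also fell. Srsf1 activates splicing through exonic enhancers and also takes part in NMD and translation. Its level was 984, 973 and 990 CPM in the controls and 628, 658 and 629 after etoposide, a log2 fold change of -0.62 (SE 0.034, edgeR BH-adjusted p = 1.31e-11). Srsf2, which remains in the nucleus and marks nuclear speckles, went from 515, 507 and 520.0 CPM to 352, 366.5 and 351. The log2 fold change of Srsf2 was -0.53 (SE 0.0317, edgeR BH-adjusted p = 4.95e-11). For each gene every etoposide library lay below every control library.

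Srsf3 and Srsf7 are adaptors that hand spliced mRNA to the export receptor, and Srsf7 carries a zinc knuckle beside its RNA recognition motif. Srsf7 stood at 248, 251 and 248.5 CPM in the controls and at 165, 179 and 162 after etoposide, a log2 fold change of -0.56 (SE 0.0385, edgeR BH-adjusted p = 3.3e-10). Srsf3 fell less, from 482, 492 and 475 CPM to 419.5, 431.5 and 367, and its spread after etoposide was wider. The log2 fold change of Srsf3 was -0.25 (SE 0.0666, edgeR BH-adjusted p = 0.00239), and with library size alone it was -0.08 and did not pass.

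Srsf4, Srsf5, Srsf6 and Srsf9 share with Srsf1 a pair of RNA recognition motifs. Srsf9, whose RS tail is short, had 122, 119 and 126 CPM in the controls and 90.3, 87.1 and 89.9 after etoposide (log2 fold change -0.46, SE 0.0401, edgeR BH-adjusted p = 1.07e-08). Srsf6 had 432.5, 428 and 415.5 CPM and then 333, 349 and 327 (-0.34, SE 0.0321, edgeR BH-adjusted p = 2.83e-08). Both were separated between the groups. Srsf5, first known as a gene induced in growing liver cells, went from between 208 and 223.5 CPM to between 182 and 205 (log2 fold change -0.16, SE 0.0454, edgeR BH-adjusted p = 0.00364). Srsf4, the member with the longest RS tail among these, went from between 58.2 and 64.2 CPM to between 53.3 and 58.9, and its groups overlapped. Its log2 fold change of -0.13 (SE 0.0493, edgeR BH-adjusted p = 0.0267) did not pass with DESeq2 (-0.08), with DESeq2 size factors (-0.08), with the stricter filter (-0.04), or without Null control replicate 1 (-0.10) or Null etoposide replicate 3 (-0.10). Srsf5 did not pass with the stricter filter (-0.08).

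Srsf11, an RS protein of the speckles with less known about its targets, stood at 139, 140.1 and 141 CPM in the controls and at 116, 125 and 115 after etoposide. Its log2 fold change was -0.24 (SE 0.0346, edgeR BH-adjusted p = 6.51e-06), and it did not pass with library size alone (-0.07). In these libraries the share of reads on no annotated feature went from between 22.5% and 24.2% in the controls to between 25.1% and 27.3% after etoposide, and its part in these results was not tested.

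**Figure D2:**
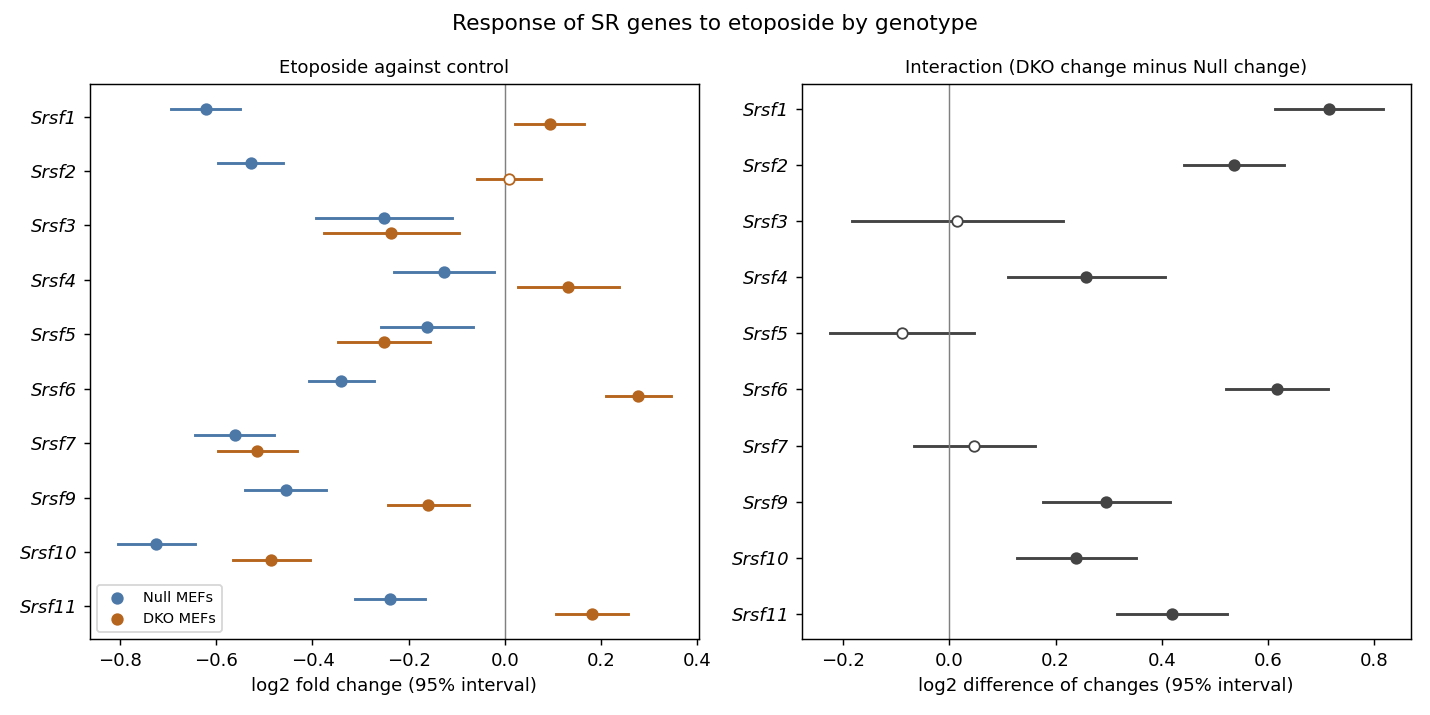
Left, log2 fold change (horizontal axis) of each gene after etoposide in Null and in DKO MEFs, with 95% intervals. Right, the interaction, that is the DKO change minus the Null change. Filled points passed edgeR's test at an adjusted p under 0.05. All Null points lie below 0, DKO points lie on both sides, and the interaction passed above 0 for 7 genes.

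The next comparison asks the same of the DKO MEFs. Of the 10 genes, 4 rose and 5 fell, while 75.1% of all genes tested passed, 43.7% higher and 31.5% lower. The median log2 fold change was -0.08 against 0.14 for all genes. Of the 4 that rose, Srsf1 and Srsf4 lay below that median of all genes, at percentiles 47.3 and 49.6. Srsf11 and Srsf6 lay above it, at percentiles 53.1 and 59. The direction depends on scaling for 3 of those that fell, since Srsf3, Srsf5 and Srsf9 lay at 0.04, 0.02 and 0.11 with library size alone. With that scaling 6 rose, Srsf2 and Srsf9 being added to the 4, and 2 fell, Srsf7 and Srsf10. Of all 15220 genes tested, 9316 were then higher and 3006 lower. The summed level of the 10 was 3083 ± 19.3 CPM in the controls and 2983 ± 20 after etoposide (SD, n = 3).

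Srsf6 rose most. It stood at 412.5, 407 and 403 CPM in the DKO controls and at 496, 485 and 501.5 after etoposide, a log2 fold change of 0.28 (SE 0.0321, edgeR BH-adjusted p = 5.26e-07). Srsf11 rose from 108, 105.5 and 106 CPM to 121, 122 and 119.6, a log2 fold change of 0.18 (SE 0.0349, edgeR BH-adjusted p = 0.000174). Neither gene's groups overlapped. Srsf1 was at 799, 792 and 809 CPM in the controls and at 841, 825 and 894 after etoposide, all 3 above the controls. The log2 fold change of Srsf1 was 0.09 (SE 0.0339, edgeR BH-adjusted p = 0.0196). It did not pass without DKO control replicate 1 (0.06) or 2 (0.05), or without DKO etoposide replicate 1 (0.09) or 3 (0.05), nor with no filter (0.05) or a fit of only these 2 groups (0.06).

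Srsf4 stood between 50.8 and 52.5 CPM in the DKO controls and between 53.6 and 60.0 after etoposide (log2 fold change 0.13, SE 0.0498, edgeR BH-adjusted p = 0.0245). It did not pass without DKO control replicate 1 (0.11), 2 (0.10) or 3 (0.12), without DKO etoposide replicate 1 (0.07) or 2 (0.12), with DESeq2 (0.11), with no filter (0.09) or with only these 2 groups (0.10). Srsf2 did not pass the test, at 410, 426 and 402 CPM in the controls and 419, 417 and 408 after etoposide (log2 fold change 0.00797, 95% interval -0.06 to 0.07, edgeR BH-adjusted p = 0.827). With library size alone it was 0.28 and passed.

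The falls in DKO MEFs were led by the export adaptor Srsf7 and the repressor Srsf10. Srsf7 stood at 249, 246 and 261 CPM in the controls and at 171, 177 and 181 after etoposide, a log2 fold change of -0.52 (SE 0.0386, edgeR BH-adjusted p = 1.7e-09). Srsf10 went from 223, 229 and 242 CPM to 160.3, 169 and 166, a log2 fold change of -0.49 (SE 0.0377, edgeR BH-adjusted p = 2.73e-09). Each etoposide library of each gene lay below all its controls. Srsf5 went from between 191 and 196 CPM to between 155 and 170.2 (log2 fold change -0.25, SE 0.0456, edgeR BH-adjusted p = 9.49e-05). Srsf3 went from between 489 and 512 CPM to between 372 and 469 (-0.24, SE 0.0667, edgeR BH-adjusted p = 0.00423). Srsf9 fell by 0.16 on the log2 scale (SE 0.0399, edgeR BH-adjusted p = 0.00169), from between 124 and 129.8 CPM to between 106 and 116. In DKO MEFs reads on no annotated feature took between 20.2% and 21.1% in the controls and between 21.2% and 22.3% after etoposide, which was not tested against these levels.

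The interaction tests whether the response to etoposide differed between the genotypes, as the DKO change minus the Null change. It was above 0 and passed for 7 of the 10 genes and below 0 for 0, while 54% of all genes tested passed, 29.6% above 0 and 24.4% below. The count of 0 was also 0 at an unadjusted p under 0.05 and by limma-trend, and it was 1 by DESeq2, where the gene was Srsf5. The median over the 10 genes was 0.28, against 0.05 over all genes.

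The interaction was largest for Srsf1, at 0.72 (SE 0.048, 95% interval 0.61 to 0.82, edgeR BH-adjusted p = 1.2e-09). Srsf6 followed at 0.62 (SE 0.0454, edgeR BH-adjusted p = 3.79e-09) and Srsf2 at 0.54 (SE 0.0448, edgeR BH-adjusted p = 1.95e-08). Srsf1 and Srsf6 are enhancer-binding proteins with a pair of RNA recognition motifs, and Srsf2 has a single such motif. Srsf11 had 0.42 (SE 0.0492, edgeR BH-adjusted p = 1.25e-06) and Srsf9 had 0.30 (SE 0.0565, edgeR BH-adjusted p = 0.000257). Srsf4 and Srsf10 had 0.26 (SE 0.0701, edgeR BH-adjusted p = 0.00477) and 0.24 (SE 0.0532, edgeR BH-adjusted p = 0.000999). Srsf10 fell in both genotypes, and the test shows that it fell by less in DKO MEFs.

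For Srsf3, Srsf5 and Srsf7 a difference in response was not detected. The interval of the interaction was -0.18 to 0.21 for Srsf3, -0.23 to 0.05 for Srsf5 and -0.07 to 0.16 for Srsf7, with edgeR BH-adjusted p of 0.922, 0.258 and 0.499. For Srsf7 this interval is narrow beside its falls of -0.56 and -0.52 on the log2 scale. The call depends on scaling for a pair of them: Srsf5 passed at -0.15 with DESeq2 and with its size factors, and Srsf7 at 0.15 with library size alone.

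**Figure D3:**
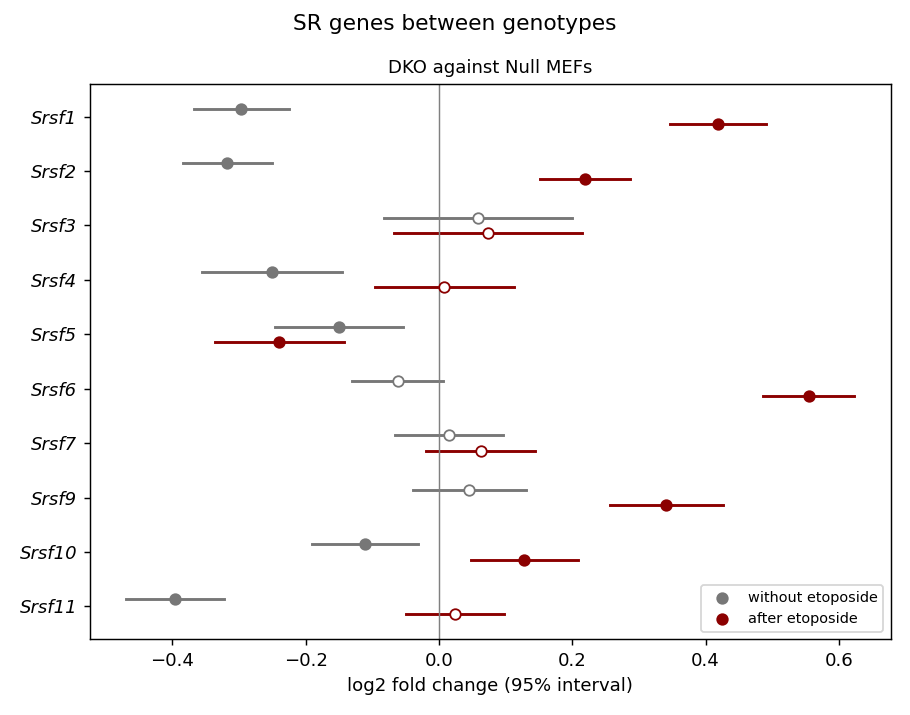
Log2 fold change (horizontal axis) of DKO against Null MEFs for each gene, without and after etoposide, with 95% intervals. Filled points passed edgeR's test at an adjusted p under 0.05. Without etoposide 6 genes lie below 0 and passed; after it 5 lie above 0 and passed, and Srsf5 lies below 0 in both.

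The comparison of genotypes without etoposide asks whether the family already differed. It was lower in DKO MEFs for 6 genes and higher for 0, while 66.7% of all genes tested passed, 33.4% lower and 33.3% higher. The median was -0.13 against -0.02 for all genes. The 0 was also 0 at an unadjusted p under 0.05, by DESeq2 and by limma-trend. The 2 comparisons of genotype share no libraries with each other, but each shares its libraries with the etoposide comparisons.

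Srsf11 differed most, with 139, 140.1 and 141 CPM in Null and 108, 105.5 and 106 in DKO controls, a log2 fold change of -0.40 (SE 0.0348, edgeR BH-adjusted p = 1.65e-08). Srsf2 had -0.32 (SE 0.0317, edgeR BH-adjusted p = 8.39e-08) and Srsf1 -0.30 (SE 0.0339, edgeR BH-adjusted p = 4.83e-07). Srsf4 had -0.25 (SE 0.0496, edgeR BH-adjusted p = 0.000248) and Srsf5 -0.15 (SE 0.0454, edgeR BH-adjusted p = 0.00773). All of these were below the Null controls in 3 of 3 DKO controls. Srsf10 was lower by a smaller step, -0.11 (SE 0.0374, edgeR BH-adjusted p = 0.0148), which did not pass without Null control replicate 2 (-0.10) or DKO control replicate 1 (-0.09). Srsf3, Srsf6, Srsf7 and Srsf9 did not pass, with values of 0.06, -0.06, 0.02 and 0.05. Of these, Srsf6 passed at -0.18 and Srsf7 lay at -0.105 and passed with library size alone, and Srsf6 also passed with the stricter filter (-0.08) and with only these 2 groups (-0.07).

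After etoposide the genotypes differed the other way for most of the genes that differed. In DKO MEFs 5 genes were higher and 1 was lower, while 74% of all genes tested passed, 37.5% higher and 36.6% lower, with a median of 0.10 against -0.00446 for all genes. Srsf6 had the largest difference, from 333, 349 and 327 CPM in Null to 496, 485 and 501.5 in DKO libraries (log2 fold change 0.56, SE 0.0321, edgeR BH-adjusted p = 4.39e-11). Srsf1 was higher by 0.42 (SE 0.0339, edgeR BH-adjusted p = 4.26e-09), Srsf9 by 0.34 (SE 0.0402, edgeR BH-adjusted p = 5.8e-07) and Srsf2 by 0.22 (SE 0.0317, edgeR BH-adjusted p = 6.98e-06). Srsf1 and Srsf2 were thus lower in DKO MEFs without the drug and higher with it. Srsf10 was higher by 0.13 (SE 0.0378, edgeR BH-adjusted p = 0.00548), and did not pass with DESeq2 (0.07), its size factors (0.07), the stricter filter (0.06) or without DKO etoposide replicate 2 (0.10). Srsf5 was lower, at -0.24 (SE 0.0456, edgeR BH-adjusted p = 0.000139), as it was without etoposide. Srsf3, Srsf4, Srsf7 and Srsf11 did not pass, at 0.07, 0.00806, 0.06 and 0.02, although Srsf3 passed without DKO etoposide replicate 3 (0.15) and Srsf7 without Null etoposide replicate 2 (0.10).

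**Figure D4:**
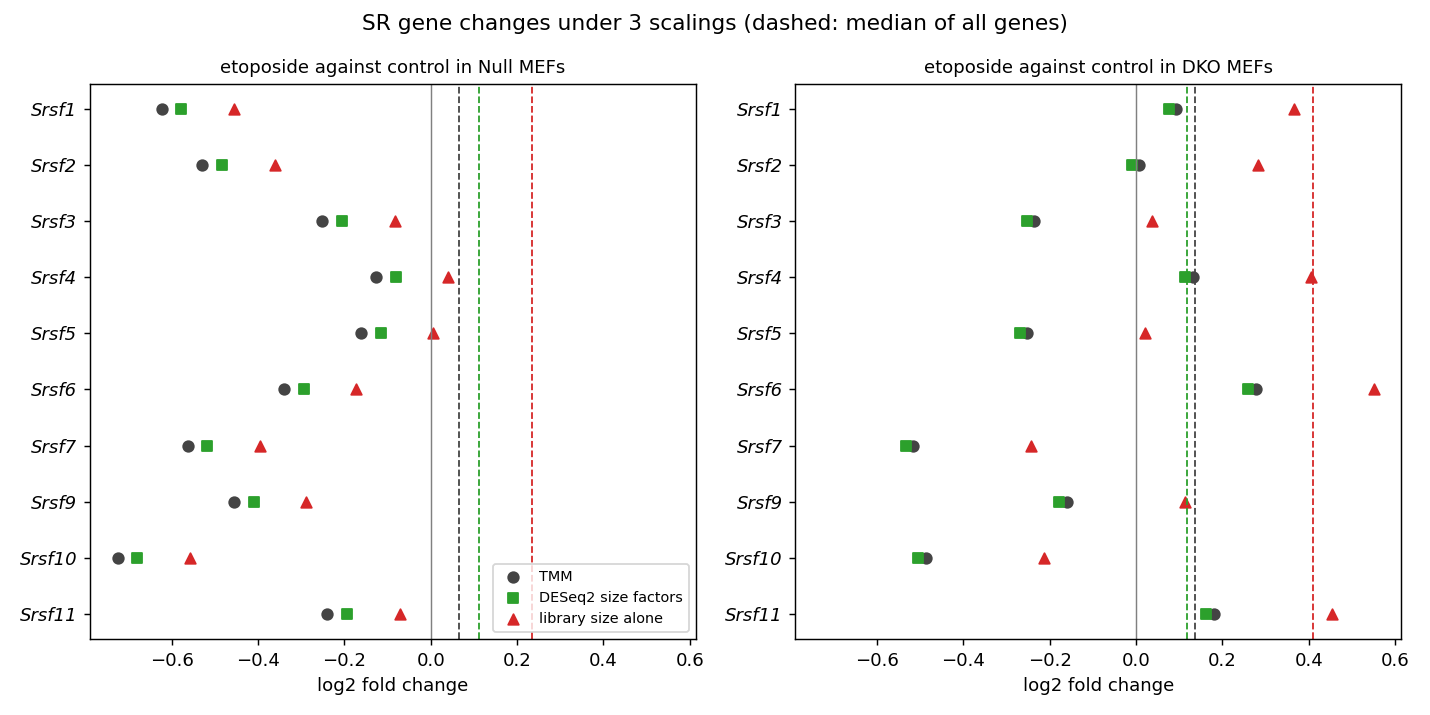
Log2 fold change (horizontal axis) of each gene after etoposide under 3 ways of scaling the libraries, in Null MEFs (left) and DKO MEFs (right), with a dashed line at the median of all genes under each. With library size alone the whole set moves up, and Srsf4 and Srsf5 in Null and Srsf3, Srsf5 and Srsf9 in DKO MEFs cross 0.

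The scaling shifts all genes together. After etoposide, library size alone moved the log2 fold change of the median gene, against TMM, by 0.17 in Null and 0.27 in DKO MEFs. Between genotypes without the drug it moved by -0.12, and 3977 of all 15220 genes were then higher and 6393 lower. In the interaction it moved by 0.11, and 5735 genes then passed above 0 and 3055 below. DESeq2 size factors moved the median gene of the interaction the other way, by -0.06, where 3797 passed above 0 and 4192 below. All 10 genes in Null MEFs lay below the median of all genes with TMM and with library size alone. The values above are therefore to be read relative to the bulk of genes, since CPM carry no measure of RNA per cell.

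The RNAs of proteins that act on SR proteins were measured in the same libraries. In Null MEFs 2 of the 10 tested genes of SR protein kinases and import receptors rose after etoposide and 7 fell, against 42.3% and 37.2% of all genes, and Srpk3 was not tested. Dyrk1a, a nuclear kinase that phosphorylates splicing factors, fell most, from 125 ± 2.74 to 41.8 ± 0.996 CPM (SD, n = 3; log2 fold change -1.58, SE 0.0422, edgeR BH-adjusted p = 7.04e-16). Prpf4b (-0.84) and Srpk2 (-0.77) fell as well. The import receptors Tnpo3 and Tnpo1 fell by 0.46 and by 0.41 on the log2 scale. Srpk1 had -0.16, which did not pass with the stricter filter (-0.07) and lay at 0.01 with library size alone. Clk2, at under 10 CPM, had -0.29 (edgeR BH-adjusted p = 0.0384), which did not pass with library size alone (-0.12), with DESeq2 (-0.25), its size factors (-0.245) or the stricter filter (-0.20), without Null control replicate 1 (-0.27) or 2 (-0.29) or without Null etoposide replicate 2 (-0.30) or 3 (-0.23). Clk1 and Clk3, kinases of the speckles, rose by 0.64 each, Clk1 from 36.1 ± 2.72 to 56.1 ± 3.07 CPM and Clk3 from 32.8 ± 1.29 to 51.1 ± 0.874. Clk4 did not pass, at -0.07.

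In DKO MEFs 2 of the 10 rose and 4 fell, against 43.7% and 31.5% of all genes. With library size alone 6 rose and 1 fell, against 9316 and 3006 of all 15220 genes. Clk1 rose by 0.59 (SE 0.0569, edgeR BH-adjusted p = 5.68e-08), and its interaction of -0.05 did not pass. Srpk1 had 0.10 (edgeR BH-adjusted p = 0.0166), which did not pass with no filter (0.06), with only these 2 groups (0.07), or without any of the 3 DKO controls (0.07 to 0.09) or DKO etoposide replicate 2 (0.08) or 3 (0.07). Dyrk1a fell by 1.30 on the log2 scale. Srpk2 (-0.26), Tnpo1 (-0.23) and Prpf4b (-0.20) also fell, but with library size alone they lay at 0.01, 0.04 and 0.07. Clk2, Clk3, Clk4 and Tnpo3 did not pass, at 0.03, 0.08, -0.06 and 0.00206, and with library size alone all 4 passed, at 0.305, 0.35, 0.21 and 0.275.

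The interaction passed above 0 for 6 of the 10 and below 0 for 1, against 29.6% and 24.4% of all genes. Prpf4b had 0.64 (SE 0.0713, edgeR BH-adjusted p = 7.02e-07), Srpk2 0.51 and Tnpo3 0.46, followed by Dyrk1a at 0.28, Srpk1 at 0.26 and Tnpo1 at 0.18. Clk3 was the gene that passed below 0, at -0.56 (SE 0.065, edgeR BH-adjusted p = 1.05e-06), and Clk2 and Clk4 did not pass, at 0.32 and 0.01. Without etoposide 3 were higher and 3 lower in DKO MEFs, against 33.3% and 33.4% of all genes. The higher were Dyrk1a (0.28), Clk3 (0.26) and Clk1 (0.22), and the lower Tnpo3 (-0.33), Tnpo1 (-0.29) and Prpf4b (-0.14). With library size alone 6 were lower, against 6393 of all 15220 genes. The call of Clk1 changed in 1 of 15 alternatives. Srpk2 (-0.0989) and Clk4 (-0.118) did not pass, and their calls changed in 4 and 3 of 15. The value of Prpf4b did not pass without Null control replicate 1 (-0.12) or DKO control replicate 1 (-0.13) or 2 (-0.14). After etoposide 6 were higher and 2 lower, against 37.5% and 36.6% of all genes. Dyrk1a (0.56), Prpf4b (0.50) and Srpk2 (0.41) led the former, and Clk3 (-0.31) and Tnpo1 (-0.11) were the latter. The call of Clk1, at 0.165, changed in 6 of 15 alternatives.

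Among 37 tested SR-related and RS-domain proteins, Srsf12 being the untested gene of this list of 38, 1 rose and 29 fell in Null MEFs after etoposide, with a median log2 fold change of -0.48, against 42.3% and 37.2% of all genes and a median of 0.07. The gene that rose was Zrsr1 (0.68), and 2 to 3 rose with DESeq2, library size alone, no filter or some libraries left out. Of all 15220 genes 7803 rose with library size alone. Zrsr1 and the other genes named below to complete a count of 5 or fewer were named after their values were seen. Rbm39, a U2AF-related splicing factor, fell from 389 ± 1.05 to 157 ± 4.99 CPM (SD, n = 3; log2 fold change -1.31, SE 0.0326, edgeR BH-adjusted p = 3.01e-16), and Scaf8, which binds RNA polymerase II, from 168.5 ± 2.91 to 71.0 ± 0.655 (-1.25). In DKO MEFs 8 rose and 19 fell, against 43.7% and 31.5% of all genes. The median was -0.15, against 0.14 for all genes. With library size alone 17 rose and 12 fell, against 9316 and 3006 of all 15220 genes. With TMM, Rsrp1 rose by 0.59 on the log2 scale in DKO MEFs and Scaf8 fell by 0.81. The interaction passed above 0 for 26 and below 0 for 3, Tra2a, Tra2b and Rsrc2, with a median of 0.30, against 29.6% and 24.4% of all genes and a median of 0.05. It was led by Bclaf1 at 0.71 (SE 0.0562, edgeR BH-adjusted p = 9.25e-09) and the speckle scaffold Srrm2 at 0.68 (SE 0.0832, edgeR BH-adjusted p = 2.04e-06). Between genotypes 5 were higher and 17 lower without etoposide, against 33.3% and 33.4% of all genes, and 25 were higher and 4 lower after it, against 37.5% and 36.6% of all genes. The 5 were Zrsr2 (0.44), Scaf1 (0.25), Son (0.17), Rsrc2 (0.16) and Tra2b (0.15), a count that was 2 with library size alone, against 3977 of all 15220 genes. The 4 were Tra2a (-0.49), Cherp (-0.28), Scaf11 (-0.15) and Tra2b (-0.11). Bclaf1 (0.70) and Scaf4 (0.53) led those higher after etoposide.

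Tra2a and Tra2b, the nearest relatives of the family outside its naming series, fell after etoposide in both genotypes, as Srsf3, Srsf5, Srsf7, Srsf9 and Srsf10 did. Their interaction had the other sign. Tra2b stood at 163 ± 4.8 CPM in Null controls and 96.6 ± 3.51 after etoposide, and at 181 ± 3.96 and 89.5 ± 0.863 in DKO MEFs (SD, n = 3). Its log2 fold change was -0.76 in Null and -1.01 in DKO MEFs. Tra2a had -0.53 and -0.80. The interactions of Tra2a and Tra2b were -0.27 (SE 0.0498, edgeR BH-adjusted p = 0.000174) and -0.26 (SE 0.0499, edgeR BH-adjusted p = 0.000283). They lay below 0, where 7 SR genes passed above it and Srsf3, Srsf5 and Srsf7 did not pass.

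**Figure D5:**
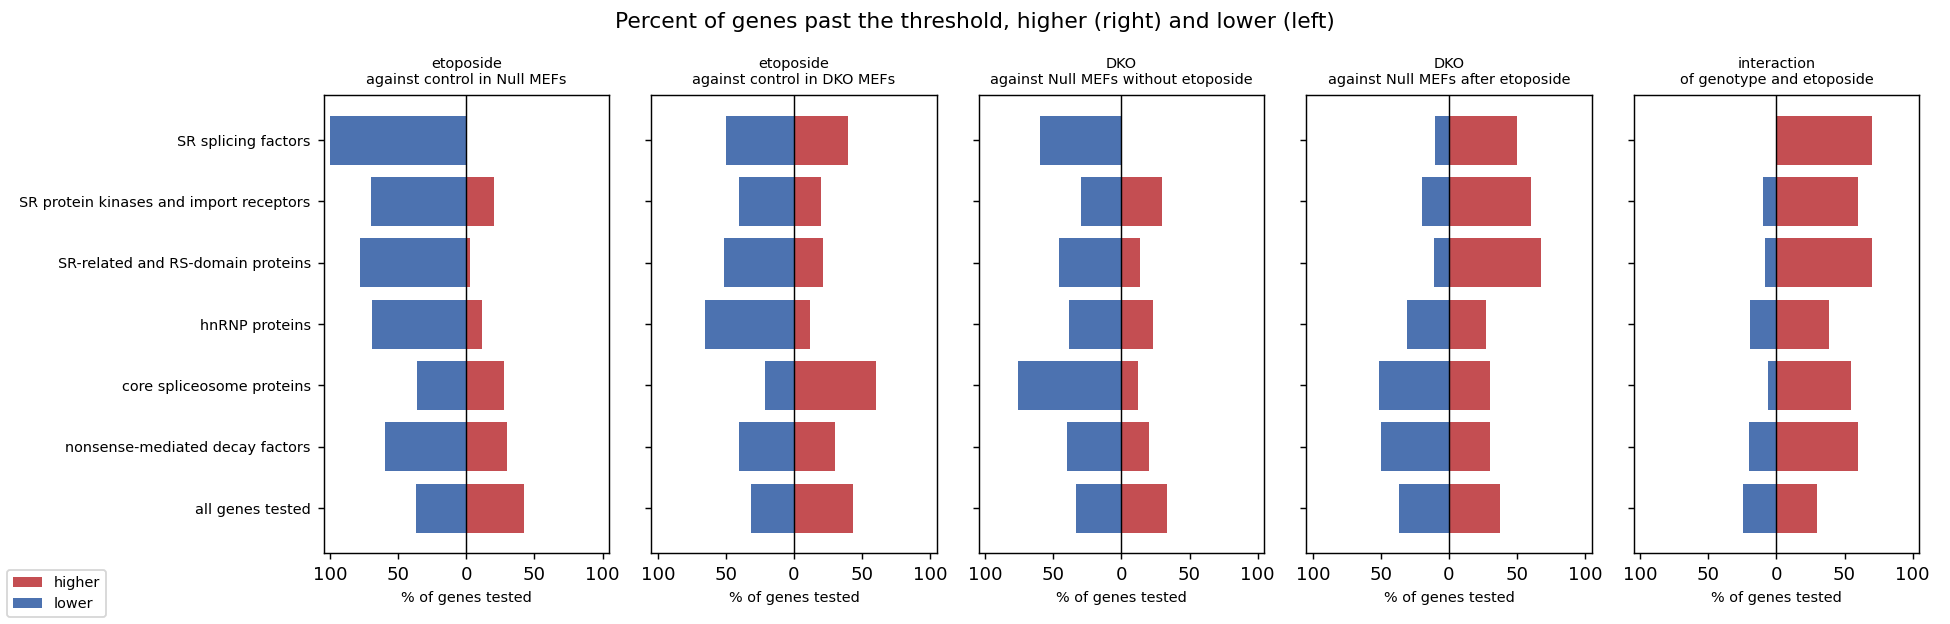
Percent of the tested genes of each list that were higher (right of 0) or lower (left of 0) at an adjusted p under 0.05, in the 5 comparisons, with all genes tested in the bottom bar. In Null MEFs after etoposide 10 of 10 SR genes and 29 of 37 SR-related genes are lower, against 37.2% of all genes.

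The hnRNP proteins, which often oppose SR proteins at splice sites, are counted next. In Null MEFs 3 of 26 rose and 18 fell after etoposide (median log2 fold change -0.26), against 42.3% and 37.2% of all genes (0.07). In DKO MEFs 3 rose and 17 fell (-0.28), against 43.7% and 31.5% of all genes (0.14). With library size alone 10 rose and 9 fell in DKO MEFs, against 9316 and 3006 of all 15220 genes. Hnrnph1 (0.38), Hnrnph2 (0.14) and Ptbp1 (0.09) were those that rose in Null MEFs, and Hnrnpa0 (0.16), Pcbp1 (0.14) and Hnrnpab (0.11) in DKO MEFs. Hnrnph2 did not pass without Null control replicate 3 (0.08) or Null etoposide replicate 2 (0.11). Pcbp1 did not pass with no filter (0.10), with only these 2 groups (0.11), without any of the DKO controls (0.11 to 0.14) or without DKO etoposide replicate 1 (0.12) or 2 (0.07). The count of 3 in DKO MEFs was 1 with no filter, with only these 2 groups, and without DKO control replicate 2 or 3. Of all genes 6901 of 21587 rose with no filter and 5454 of 13629 with only these 2 groups. Syncrip had -1.02 in Null MEFs and Hnrnpd had -0.78 there and -0.97 in DKO MEFs. The interaction passed above 0 for 10 and below 0 for 5, which were Hnrnpf, Ptbp2, Hnrnph1, Ptbp1 and Hnrnph2, with a median of 0.04. Of all genes 29.6% and 24.4% passed, with a median of 0.05. The 10 were 6 with DESeq2, with its size factors, with the stricter filter and without DKO etoposide replicate 2. Of all genes 3797 of 15220 passed above 0 with those size factors and 3816 of 12026 with the stricter filter. Hnrnpf (-0.55) did not pass with limma-trend (-0.59) or library size alone (-0.44). With library size alone 3 passed below 0, against 3055 of all 15220 genes. Between genotypes 6 were higher and 10 lower without etoposide, against 33.3% and 33.4% of all genes, and 7 higher and 8 lower after it, against 37.5% and 36.6% of all genes, with Ptbp2 lower in each, at -0.56 and -0.96. With library size alone 3 were higher and 18 lower without etoposide, against 3977 and 6393 of all 15220 genes.

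The core spliceosome proteins were counted in the same way. In Null MEFs 9 of 33 rose and 12 fell after etoposide, against 42.3% and 37.2% of all genes, with Sf3b5 at 0.66 and Sf3b1 at -0.77. With library size alone 18 rose and 6 fell, against 7803 and 4396 of all 15220 genes. With the stricter filter 14 rose, against 5005 of the 12026 genes then tested. In DKO MEFs 20 rose and 7 fell, against 43.7% and 31.5% of all genes, with Prpf31 at 0.49 and Sf3b1 at -0.71. There 1 fell with library size alone, against 3006 of all 15220 genes, and 4 with the stricter filter, against 4370 of 12026. Prpf8 had -0.22 in DKO MEFs and lay at 0.06 with library size alone. The interaction passed above 0 for 18 and below 0 for 2, namely Sf3b5 (-0.36) and Prpf8 (-0.28), against 29.6% and 24.4% of all genes. Without etoposide 25 of 33 were lower in DKO MEFs, with Sf1 at -0.63, and 4 were higher, Snrpd3 (0.28), Sf3b1 (0.26), Sf3b5 (0.25) and Sf3b6 (0.16). With library size alone 2 were higher, against 3977 of all 15220 genes. After etoposide 17 were lower and 10 higher, with Prpf8 at -0.49. Of all genes 33.4% were lower and 33.3% higher without etoposide, and 36.6% and 37.5% after it.

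NMD factors matter here because NMD removes the poison-exon forms of SR transcripts. After etoposide 3 of 10 rose and 6 fell in Null MEFs, against 42.3% and 37.2% of all genes. In DKO MEFs 3 rose and 4 fell, against 43.7% and 31.5% of all genes. With library size alone 6 rose in DKO MEFs, against 9316 of all 15220 genes. Upf3a, Upf3b and Smg8 were the 3 that rose in each genotype with TMM. Smg1, Smg6 and Smg9 were among those that fell in DKO MEFs. Smg1, the kinase that acts on Upf1, fell from 325 ± 8.6 to 139 ± 9.03 CPM in Null MEFs (SD, n = 3; log2 fold change -1.22, edgeR BH-adjusted p = 2.33e-14) and from 404 ± 12.9 to 240.0 ± 4.6 in DKO MEFs (-0.75, edgeR BH-adjusted p = 2.82e-11). Upf3b rose in Null MEFs by 0.84. The interaction passed above 0 for 6 and below 0 for 2, with Smg1 at 0.47 among the former and Upf3b (-0.58) and Smg6 (-0.41) as the latter, against 29.6% and 24.4% of all genes. Without etoposide 2 were higher in DKO MEFs, Smg1 among them, and 4 were lower, Smg5 (-0.56), Upf1 (-0.50), Smg9 (-0.42) and Upf2 (-0.23). With library size alone 7 were lower, against 6393 of all 15220 genes. After etoposide 3 were higher, among them Smg1 (0.79) and Smg8 (0.19), and 5 lower, Smg9 (-0.58), Upf3b (-0.52), Smg6 (-0.47), Smg5 (-0.30) and Upf1 (-0.21). Of all genes 33.3% were higher and 33.4% lower without etoposide, and 37.5% and 36.6% after it.

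The RNAs of the speckle and paraspeckle varied more between replicates. Neat1 stood at 161, 148 and 208 CPM in Null controls and at 380.1, 341 and 177 after etoposide, so its groups overlapped (log2 fold change 0.80, SE 0.233, edgeR BH-adjusted p = 0.00486). In DKO MEFs it stood at 114, 147 and 129.7 CPM and at 301, 211 and 154 (0.76, SE 0.235, edgeR BH-adjusted p = 0.00763). Neither call held with limma-trend, and in DKO MEFs it did not pass without etoposide replicate 1 (0.47). Malat1 did not pass in any comparison, with means between 1118 and 1322 CPM, although without Null etoposide replicate 3 it passed after etoposide in Null MEFs (0.39), between genotypes after etoposide (-0.48) and in the interaction (-0.49).

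Members were also set beside the gene with the most similar pattern over the 12 libraries, measured as the root mean square difference of centred log2 CPM among 9343 other genes. Close pairs were Chmp4b to Srsf9 (0.0331), Abce1 to Srsf6 (0.0395), Ctcf to Srsf10 (0.0399) and Atad2 to Srsf5 (0.0431). Plk4 was closest to Srsf7 (0.0433), Ddx47 to Srsf4 (0.0436), Nhlrc2 to Srsf2 (0.0453), Papd5 to Srsf1 (0.0456) and Hnrnpa2b1 to Srsf3 (0.0702). Within the family Srsf7 and Srsf10 were each other's nearest member (0.0648), as were Srsf1 and Srsf2 (0.0815), and Srsf4 and Srsf11 (0.079). Every member had genes outside the family nearer to it than any other member. With 9343 genes outside the family and few inside it, this was likely from the numbers alone. It does not show that members are unlike each other. Among those genes the rank of the nearest member ran from 20 for Srsf10 to 792 for Srsf5.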

How the data were processed

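RNA from the 12 libraries described above was sequenced by the authors as stranded, paired-end, ribosome-depleted total RNA. Per the study's methods the authors trimmed reads with Cutadapt where required, aligned them with HISAT2, and counted uniquely mapped pairs with HTSeq on GENCODE genes, and the deposited values are raw counts per gene. The submitters' processing notes name featureCounts and mm10 as well. Versions and the strand setting are not given in the sources used here. The labels name 2 RNA kits (Thermo Fisher PureLink or QIAGEN RNeasy) without saying which library had which, so a kit effect was not tested. They do not say whether replicates were separate cultures, so p-values measure only the spread between these samples.

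The 5 summary lines of the table entered neither the library sizes nor the tests. Genes took between 53.4% and 63.1% of the reads listed, reads on no feature 20.2% to 27.3%, ambiguous reads 0.428% to 0.513% and reads not uniquely aligned 15.9% to 20.5%. Counts on genes differed 2.28-fold between libraries. No 2 replicates were duplicates by a chi-square test of their counts.

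Counts were tested with edgeR 4.0.16 in R 4.3.3 (glmQLFit, glmQLFTest), on all 12 libraries with a group factor, filterByExpr, TMM factors (0.884 to 1.09) and Benjamini-Hochberg adjustment over the 15220 genes tested, at 0.05. edgeR offers a newer and an older quasi-likelihood fit. The older was run first and its results were seen before the newer was taken, because the newer gives the gene counts of an earlier analysis of these data, and member counts are the same with both. Each fold change has its standard error and 95% interval. The script was tested on simulated data. An exact permutation test of 3 against 3 libraries cannot go below p = 0.1 (two-sided), so none was used. CPM per kilobase used exon unions of the GENCODE annotation.

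Groups came from the sample titles. The members and lists were chosen with earlier results of these data known. Besides the members, the text names Tfeb and Tfe3, all genes of the kinase and import list and of the speckle RNAs, the Tra2 pair, for each other list and comparison genes among the top 2 in each direction by fold change (only those past the threshold, means from 10 CPM upward), and the gene most similar to a member, with exceptions named where they occur. Some of these genes are not reported here. The newer fit was thus chosen after seeing the data, and the older was then kept as an added alternative. Alternatives were DESeq2 1.42.0, limma-trend (limma 3.58.1), DESeq2 size factors, library size alone, no filter, a mean of at least 1 CPM, a replicate block, only the groups compared, each library left out and other gene lengths. Figures used matplotlib 3.10.9 in Python 3.11.15. Protein sequences were not used here.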

Additional observations from a re-analysis of the deposited data

Results flagged for a closer look

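The response to etoposide differed between the genotypes by the interaction test of edgeR for 7 of the 10 SR genes. As the DKO change minus the Null change, on the log2 scale, it was 0.716 for Srsf1, 0.617 for Srsf6, 0.537 for Srsf2 and 0.42 for Srsf11. The values of Srsf9, Srsf4 and Srsf10 were 0.296, 0.258 and 0.239. All 7 also passed with DESeq2 and with limma-trend, and 54% of all genes tested passed in either direction.

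Reads on no annotated feature are outside the gene counts. Their share was higher after etoposide than in every control library of the same genotype, with a mean of 26.2% against 23.2% in Null MEFs and 21.9% against 20.6% in DKO MEFs.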

How the results depend on the processing

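Counts, and log2 fold changes of the SR genes and most other named genes, were recomputed under the alternatives listed for them. Fold changes of some genes named to complete a count, such as Zrsr1, were not. The counts of all genes called were within 1.5 times their value in 80 of 80 cases, and the counts of SR genes in 151 of 160. Of 800 log2 fold changes of SR genes, 757 kept their side of the threshold, 28 were no longer past it, 9 newly passed and 6 turned sign with a value that passed before or after. The 757 include values that turned sign without passing in either case. Of the list counts 911 were within 1.5 times and 49 were not. Of the log2 fold changes of other named genes 2387 kept their side, 44 were no longer past the threshold, 23 newly passed and 6 turned sign, counted in the same way. With library size alone 6 SR genes were lower after etoposide in Null MEFs in place of 10, against 4396 of all 15220 genes. In DKO MEFs 2 were lower in place of 5, against 3006 of all 15220 genes. With library size alone Srsf4, Srsf5 and Srpk1 turned to 0.0412, 0.00585 and 0.0117 in Null MEFs. In DKO MEFs Srsf3, Srsf5, Srsf9, Srpk2, Clk4, Prpf4b, Tnpo1 and Prpf8 turned to 0.0378, 0.0214, 0.113, 0.0108, 0.213, 0.0694, 0.0395 and 0.056. Srsf7 turned to -0.105 between genotypes without etoposide. This scaling takes out the TMM factors, and it moved higher calls from 53.2% to 64% of all calls in Null MEFs, from 58.1% to 75.6% in DKO MEFs, from 49.9% to 38.4% between genotypes without etoposide and from 54.8% to 65.2% in the interaction. The SR genes higher in DKO MEFs after etoposide numbered 2 in place of 4 with no filter and with only the 2 groups compared, and 2 to 3 with a library of those groups left out, where Srsf1, Srsf4 or both did not pass, and the cause was not tested. They numbered 2 without DKO control replicate 1 or 2 and without DKO etoposide replicate 1. Of all genes 6901 of 21587 were higher with no filter and 5454 of 13629 with only the 2 groups compared. In the interaction 1 SR gene, Srsf5 at -0.153, passed below 0 in place of 0 with DESeq2 and with DESeq2 size factors in edgeR, and the cause was not tested. Of all genes 4323 of 16183 and 4192 of 15220 passed below 0 with these 2 settings.

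With the replicate number as a block, 12111 and 11416 genes were called after etoposide in Null and DKO MEFs, 10171 and 11274 between genotypes without and after etoposide, and 8208 in the interaction, and the SR genes numbered 10 lower, 4 higher and 5 lower, 6 lower, 5 higher and 1 lower, and 7 higher, as without it. Libraries with the same number did not deviate together, since none of 18 correlations of deviations was over 0.1 (-0.032 to 0.0429). The older quasi-likelihood fit, which was run first and became an alternative when the newer was chosen after seeing the data, called 11940, 11459, 10263, 10963 and 8310 genes in the same order. Per-kilobase levels of the 10 genes in the 4 groups moved by more than the SD in 40 of 40 cases with the coding or the longest-transcript length, and in 37 of 40 with library size alone. The smallest count of an SR gene in any library was 2967.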

Other observations

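Srsf2, Srsf3, Srsf4, Srsf11, Malat1 and Neat1 were lowest in replicate 3 of both etoposide groups. Other members went the other way in replicate 3 of DKO etoposide. Srsf1 (893.7 CPM), Srsf5 (170.2), Srsf6 (501.5), Srsf7 (180.7) and Srsf9 (116.2) were the highest of their group there. In Null etoposide the values of replicate 3 were 367 CPM for Srsf3, 851 for Malat1 and 177 for Neat1, and in DKO etoposide they were 372, 877 and 154. The replicate numbers were not found to pair libraries across groups, and these values were noticed after the fact.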
